A study of Mus musculus with 10 samples.

Results

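The 10 genes described here encode the pentose phosphate pathway and its nearest partners in NADPH supply: G6pdx, Pgls and Pgd of the oxidative branch, Rpia, Rpe, Tkt and Taldo1 of the non-oxidative branch, Prps1 of phosphoribosyl pyrophosphate (PRPP) synthesis, and Idh1 and Me1, which make NADPH in the cytosol outside the pathway. The rule names them and uses no measured value, although they were chosen with earlier results of these data known, and all 10 were found by mouse Ensembl identifier among the 55359 genes of the deposited table. The pathway branches from glycolysis at glucose 6-phosphate. Its oxidative branch yields NADPH, the reductant for glutathione recycling and fatty acid synthesis, and ribulose 5-phosphate. Its non-oxidative branch interconverts sugar phosphates reversibly, so that ribose for nucleotides can be made from glycolytic intermediates or returned to them.

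RNA was sequenced from orthotopic tumors of KPC K8484 cells, a luciferase-expressing murine pancreatic cancer line grown in the pancreas of C57BL/6 mice (C57BL/6 J in the study's methods) that were 10 weeks old at injection. The 5 CTRL tumors came from normoglycemic mice on regular water and the 5 D30 tumors from mice made hyperglycemic by 30% dextrose water, compared after 14 days. The sample titles call all 10 samples PDX, a term for patient-derived xenografts, while their source is given as KPC K8484 cells and the gene identifiers are mouse. The study used mice of both sexes, and the labels do not give sex by sample. The labels call the samples independent biological replicates but do not tie a column of the table to an animal, so tumors are named by their columns (N1, N2, N4, N5 and N6 for CTRL, T1, T2, T4, T5 and T7 for D30). The T columns were taken as D30 because it was the only group left. All tumors came from a single cell line, so the comparison says nothing of other lines.

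The deposited values are normalized counts, the reads of a gene divided by 1 size factor per tumor. Between 29192261 and 42122304 reads per tumor lay behind them, and the fewest reads of any of the 10 genes in a tumor were 427, for Rpia in T5. Groups were compared over the 24560 genes whose normalized count averaged at least 1, a filter that all 10 genes passed. The test was limma's moderated test on log2(normalized count + 1), a scale that slightly understates differences of low genes, and a gene was called at a p under 0.05 after adjustment over all tested genes by Benjamini and Hochberg (BH). In total 678 genes were called (2.76%), 344 of them higher and 334 lower in D30 tumors.

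Some tumors stood apart before any result on these genes. T4 was the only tumor with reads of the Y-linked genes Ddx3y, Eif2s3y, Kdm5d and Uty, 973 normalized counts in sum where the other tumors had 0. In T4 the fifth of genes lowest in GC content also lay 1.29 log2 units above the fifth highest in GC, and in N1 0.73 above, where the other 8 tumors lay between -0.49 and -0.06. T5 had reads from 20482 genes, the fewest of all tumors, and 187883 normalized counts of erythroid markers, where the others had 4124 to 12386. Of the epithelial markers, Krt8, Krt18 and Krt19 had at least 44920 normalized counts in every tumor and Epcam 16 to 191 in CTRL and 0 to 62.5 in D30 tumors. The summed normalized counts of 7 epithelial markers were 209932 to 335568 in CTRL and 341412 to 475748 in D30 tumors, and those of 5 endothelial markers 10082 to 16799 and 4115 to 8398, without overlap in either list. Cdh5 made up most of the endothelial sums, with 7205 to 14529 normalized counts in CTRL and 2480 to 6142 in D30 tumors. Each of the other endothelial markers overlapped between the groups. By sign, 6 of 7 epithelial markers were higher in D30 tumors and Epcam lower, with 0 called, and 5 of 5 endothelial markers were lower, with Cdh5 called. All 8 fibroblast markers were lower by sign with 0 called, and their summed counts ran from 78585 to 138359 among CTRL and from 29990 to 104760 among D30 tumors. All 5 islet markers were lower, with Ins1, Gcg and Iapp called, at 7.08 to 1408 and 0 to 15.0. Of 7 macrophage markers 6 were lower by sign, with Csf1r called, although their summed counts were highest in T4, at 67734.5. All 7 lymphocyte markers were lower and all 5 neutrophil markers higher by sign, with 0 called in either list. Summed adipocyte markers were highest in N4, at 6769, and summed acinar markers in N6 and N2, at 52786 and 24574. The part of these differences in the results below was not tested. In bulk tissue, fewer cells of a type and less RNA per cell cannot be told apart.

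No member was called in the comparison of D30 with CTRL tumors, 0 of 10 by limma, where 2.76% of all tested genes were called. Tkt was the only member with an unadjusted limma p under 0.05, 1 of 10 against 17.3% of all genes. Count-based tests on the recovered reads called 0 of 10 as well, with 3.96% of genes called by edgeR and 8.17% by DESeq2. DESeq2 gave no adjusted p for Idh1. On simulated data, which had equal spread in both groups and no outlying tumor, it made a larger share of false calls than limma or edgeR. The groups overlapped in all 10 genes, whereas 6.19% of tested genes had groups that did not overlap. By sign alone, 9 of 10 members were higher in D30 tumors (8 of 10 with library size as the only scaling, where Pgls was at -0.0023) against 45.3% of all genes, and 48.3% of the genes with a mean of at least 100. Their median log2 fold change was 0.25 where that of all genes was -0.06. The 10 differences ran from -0.10 for Prps1 to 0.53 for Rpia, with standard errors of 0.178 to 0.376.

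**Figure D1:**
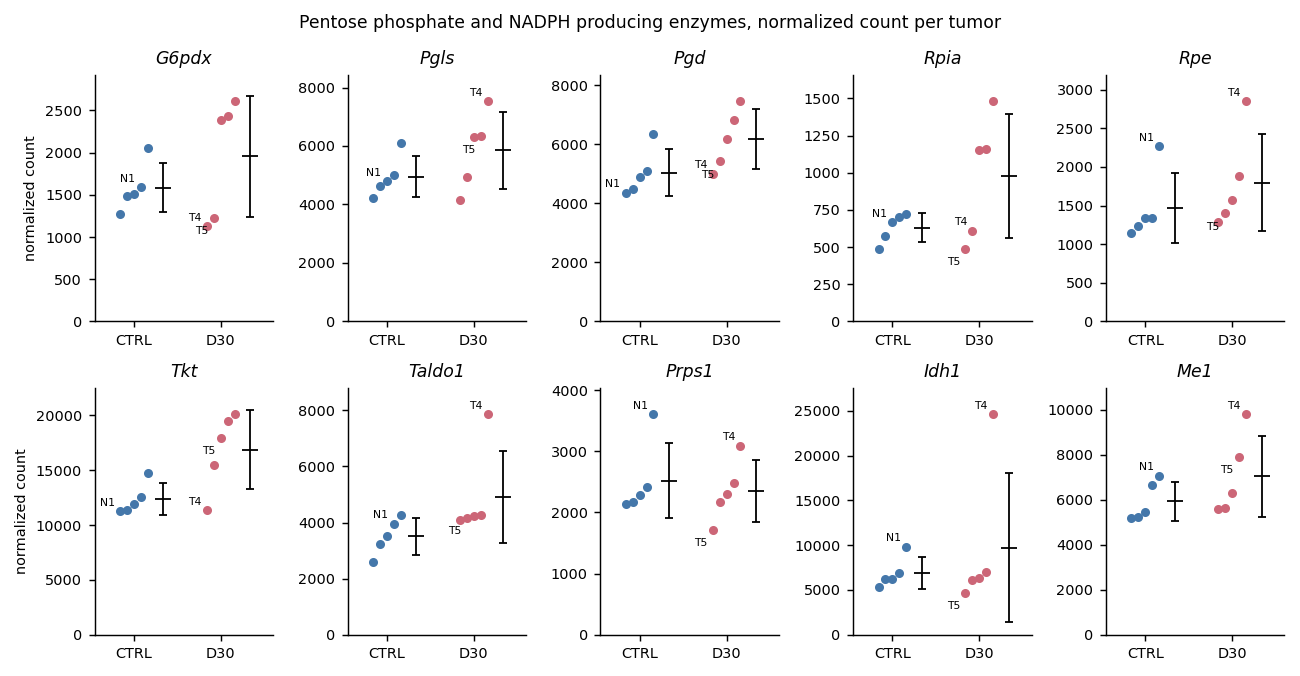
Normalized count (vertical axes, from 0) of each gene in every tumor, CTRL in blue and D30 in red. Black bars give the mean and SD of 5 tumors, and N1, T4 and T5 are marked. The groups overlap in every panel, and T4 is the highest point for Pgls, Rpe, Taldo1, Idh1 and Me1.

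The oxidative branch starts with G6pdx (ENSMUSG00000031400, chrX:74409483-74429194, minus strand, GRCm38), which encodes glucose 6-phosphate dehydrogenase, the enzyme that commits glucose 6-phosphate to the pathway and makes the first NADPH. G6pdx had 1589, 1491, 2058, 1271 and 1513 normalized counts in the CTRL tumors N1, N2, N4, N5 and N6. It had 2612, 2384, 1128, 1224 and 2438 in the D30 tumors T1, T2, T4, T5 and T7. The D30 tumors thus lay on both sides of the CTRL range: T1, T2 and T7 exceeded every CTRL tumor, and T4 and T5 were below every CTRL tumor. The means were 1584 ± 290.1 (SD, n = 5) and 1957 ± 719 (SD, n = 5). The log2 fold change of G6pdx was 0.23 (SE 0.266, 95% interval -0.34 to 0.81), with a BH-adjusted p of 0.707 by limma. The interval spans a fall as well as a rise, so that neither was shown. Leaving out single tumors moved the difference between 0.11 (without T1) and 0.41 (without T4). Ikbkg shares 418 bases of annotated exon with G6pdx on the opposite strand, and since it is not stated whether reads were counted by strand, the reads of both cannot be told apart there.

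Pgls (chr8:71592176-71601092, plus strand) encodes 6-phosphogluconolactonase, which opens the lactone formed by the dehydrogenase. Its normalized counts in CTRL tumors, in the same order, were 4804, 5009.6, 6106, 4228 and 4629, and those in D30 tumors 4153, 4955, 7539, 6333 and 6308. T4, T5 and T7 exceeded every CTRL tumor and T1 was below every CTRL tumor. Pgls had a log2 fold change of 0.22 (SE 0.195, interval -0.20 to 0.64), not past the threshold (limma, BH-adjusted p = 0.610), and the difference was 0.12 without T4 and 0.34 without T1. Pgls shares 776 bases of exon with Fam129c on the same strand, so its reads are uncertain in part.

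Pgd (chr4:149149991-149166771, minus strand) encodes 6-phosphogluconate dehydrogenase, which makes the second NADPH and releases ribulose 5-phosphate. It had 4369, 4905, 6356, 4487 and 5101 normalized counts in CTRL and 6826, 6186, 5015, 5426 and 7474 in D30 tumors. All D30 tumors lay above the CTRL median of 4905, although 3 of 5 lay below the CTRL tumor N4. With a log2 fold change of 0.29 (SE 0.178, interval -0.09 to 0.68) the difference had the smallest SE of the 10 genes, and it did not pass (limma, BH-adjusted p = 0.433; two-sided exact permutation p = 0.0873).

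In the non-oxidative branch, Rpia (chr6:70765720-70792232, minus strand) encodes ribose 5-phosphate isomerase, which turns ribulose 5-phosphate into the ribose 5-phosphate used for nucleotides. The CTRL tumors had 667, 576, 699.9, 484 and 719.6 normalized counts of Rpia, and the D30 tumors 1157, 1155, 611, 489 and 1483. T1, T2 and T7 were at least 1155 and lay above every CTRL tumor, and T4 and T5 lay inside the CTRL range. The same D30 tumors were high and low for G6pdx. Means were 629 ± 98.0 (SD, n = 5) and 979 ± 416 (SD, n = 5), and the log2 fold change of 0.53 was the largest of the 10 genes, with an interval of -0.11 to 1.17 (limma, BH-adjusted p = 0.387), and it was 0.35 without T7. The spread on the log2 scale was 0.24 in CTRL and 0.68 in D30 tumors (SD), where the median gene with a mean of at least 100 had 0.27 and 0.54.

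Rpe (chr1:66700831-66719805, plus strand) encodes ribulose 5-phosphate 3-epimerase, which supplies xylulose 5-phosphate to transketolase. Its CTRL values were 2265, 1142, 1342, 1239 and 1338 normalized counts, with N1 far above the others. The D30 values were 1884, 1567, 2852, 1398 and 1281, and only T4 exceeded N1. Rpe had a log2 fold change of 0.28 (SE 0.254, limma, BH-adjusted p = 0.626), which was 0.095 without T4 and 0.45 without N1. Rpe has the lowest GC content of the 10 genes, 39.2%, and its highest CTRL and D30 tumors were the pair in which genes of low GC content stood highest. With each tumor corrected for its trend of expression with GC content, the log2 fold change of Rpe was 0.46 (limma, BH-adjusted p = 0.148). Rpe shares 558 bases of exon with Kansl1l on the opposite strand.

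Tkt (chr14:30548359-30574720, plus strand) encodes transketolase, which moves a 2-carbon unit between sugar phosphates and links the branch to glycolysis. It had 11259, 11918, 14724, 11332 and 12595 normalized counts in CTRL tumors. In D30 tumors it had 19514, 15443, 11344, 17956 and 20088. Every D30 tumor but T4 exceeded every CTRL tumor, and T4 stood near the bottom of the CTRL range. The means of Tkt were 12366 ± 1424 (SD, n = 5) and 16869 ± 3574 (SD, n = 5). On the log2 scale they differed by 0.43 (SE 0.196, interval 0.0024 to 0.85). Its unadjusted p was 0.0489 by limma and 0.0476 by a two-sided exact permutation test with n = 5 per group, and the BH-adjusted p of 0.286 (limma) did not pass.

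Taldo1 (chr7:141392199-141402968, plus strand) encodes transaldolase, which moves a 3-carbon unit and completes the return to glycolysis. It had 3955, 3219.7, 4252, 2587 and 3532 normalized counts in CTRL and 4259, 4246, 7859, 4167 and 4095 in D30 tumors. T1, T2, T5 and T7 lay within a narrow band of 4095 to 4259, close to the highest CTRL tumor, and T4 lay far above all tumors. Taldo1 had a log2 fold change of 0.46 (SE 0.222, interval -0.02 to 0.94). The exact permutation p was 0.0317 (two-sided, n = 5 per group) and the BH-adjusted p 0.308 (limma). Without T4 the difference was 0.28.

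Prps1 (chrX:140456613-140476140, plus strand) encodes phosphoribosyl pyrophosphate synthetase 1, which activates ribose 5-phosphate for purine, pyrimidine and NAD synthesis. It was the only member lower in D30 tumors by sign. Its normalized counts were 3603, 2131, 2417, 2167 and 2279 in CTRL and 2164, 2300.1, 3092, 1716 and 2476 in D30 tumors. Apart from N1 and T4, which were the highest of their groups, all tumors lay between 1716 and 2476. The log2 fold change was -0.10 (SE 0.208, interval -0.55 to 0.35), with a BH-adjusted p of 0.856 (limma), and it was 0.039 without N1 and 0.0094 without T5. Reads shared with the close copies of Prps1 elsewhere in the genome, such as Prps1l3, are uncertain.

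Of the NADPH producers outside the pathway, Idh1 (chr1:65158616-65186500, minus strand) encodes the cytosolic isocitrate dehydrogenase. Idh1 had 9851, 5319, 6210.0, 6908 and 6197 normalized counts in CTRL and 6109, 6962, 24618, 4709 and 6298 in D30 tumors. The D30 mean of 9739 ± 8358 (SD, n = 5) included T4 at 24618, while the other D30 tumors had at most 6962 and the group medians were 6210.0 and 6298. Its log2 fold change of 0.23 (SE 0.376, limma, BH-adjusted p = 0.801) became -0.18 without T4 and 0.42 without T5.

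Me1 (chr9:86581371-86695953, minus strand) encodes the cytosolic malic enzyme, which makes NADPH from malate. The CTRL tumors had 7071, 5234, 6647, 5207 and 5472 normalized counts, and the D30 tumors 5649, 6300.1, 9801, 7924 and 5591. T4 and T5, the lowest D30 tumors of G6pdx and Rpia, exceeded every CTRL tumor, and T1, T2 and T7 lay inside the CTRL range. The log2 fold change was 0.23 (SE 0.200, interval -0.20 to 0.66), with a BH-adjusted p of 0.607 (limma), and it was 0.10 without T4. A330041J22Rik overlaps 30 bases of its exons on the opposite strand.

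**Figure D2:**
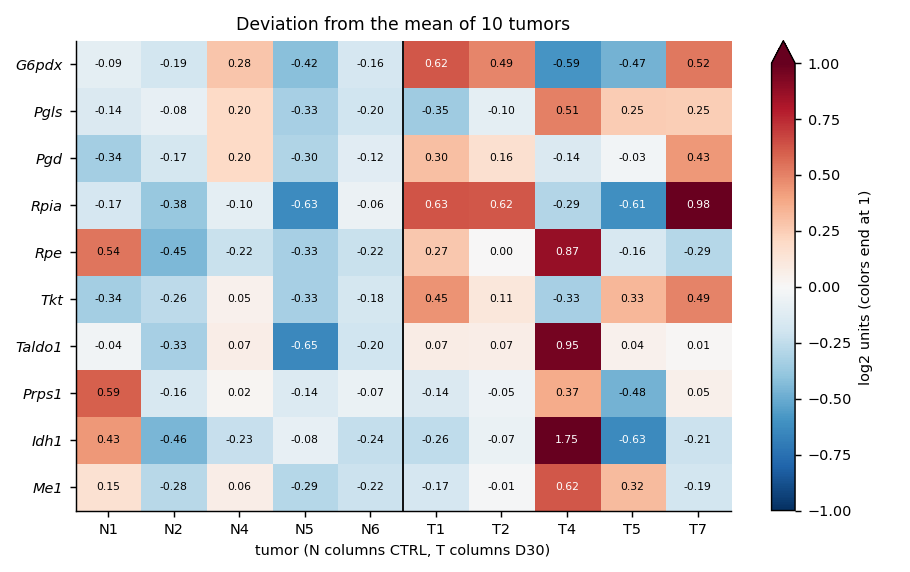
Deviation of each gene (rows) in each tumor (columns) from its mean over 10 tumors, in log2 units, with red for higher and blue for lower values. T4 is highest for Idh1 (1.75), Taldo1 (0.95) and Rpe (0.87) and lowest for G6pdx (-0.59), and N2, N5 and N6 are below the mean in every row.

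Read across the genes, the CTRL tumors N2, N5 and N6 were below the mean of all tumors in 10 of 10 members, while N4 and T7 were above it in 7. T4 had the highest value of 5 members and the lowest of 1. T7 had the highest value of Pgd, Rpia and Tkt. The mean deviation of the 4 non-oxidative genes was between -0.49 and -0.0021 in CTRL tumors. It was 0.35 in T1, 0.20 in T2, 0.30 in T4 and 0.30 in T7, and -0.10 in T5, where only T5 fell in the CTRL range. The value of T4 averages Rpe (0.87) and Taldo1 (0.95) with Rpia (-0.29) and Tkt (-0.33). For the 3 oxidative genes the mean deviation was -0.35 to 0.23 in CTRL tumors and 0.19, 0.18, -0.07, -0.08 and 0.40 in T1, T2, T4, T5 and T7, so that only T7 lay outside the CTRL range.

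**Figure D3:**
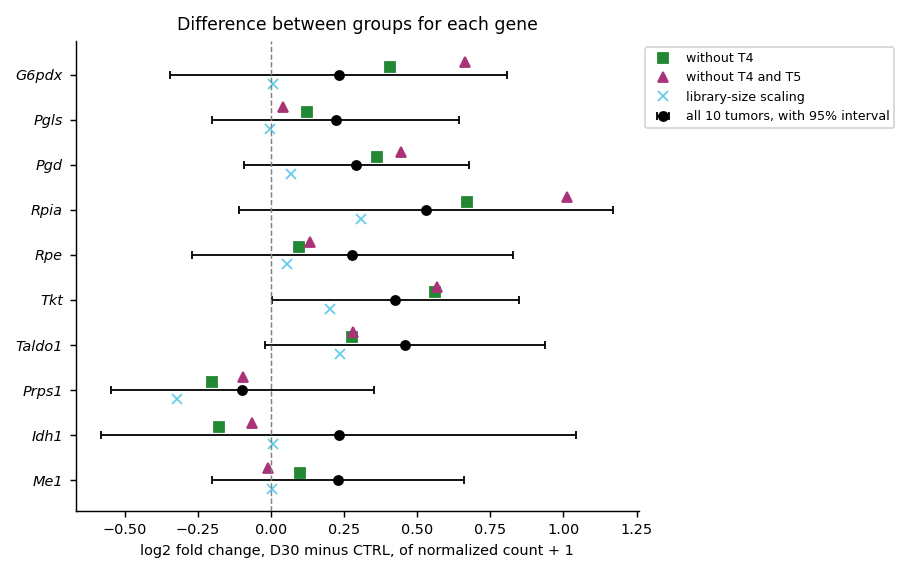
Difference between D30 and CTRL tumors on the log2 scale (horizontal axis) for each gene. Black points with bars give the value and 95% interval from all 10 tumors, and other symbols the values without T4, without T4 and T5, and with library size as the only scaling. The intervals of 9 genes include 0, and that of Tkt starts at 0.0024.

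The D30 tumors that stood apart decided several values, and fits without them were added after the data were seen, except that without T4, which belonged to the planned removal of each tumor in turn. Without T4, Tkt was called at a log2 fold change of 0.56 (SE 0.145, limma, BH-adjusted p = 0.0371), 1 of 10 members against 6.43% of all genes. Without T4 and T5, 3 of 10 were called against 9.97% of all genes: G6pdx at 0.66 (adjusted p = 0.0202), Rpia at 1.01 (adjusted p = 0.00302) and Tkt at 0.57 (adjusted p = 0.0378), by the same limma test. T4 was the lowest D30 tumor of Tkt, so leaving it out could only raise the difference of Tkt. In the same way T4 and T5 were the lowest D30 tumors of G6pdx and Rpia, so leaving both out could only raise those differences. Without N1 and T4, the tumors with the strongest GC trend, only Tkt was called, against 6.49% of all genes. Pgd did not pass without T4 and T5 (adjusted p = 0.0916, same limma test), and Pgls, Me1 and Idh1 lay between -0.065 and 0.042. With each tumor corrected for its trend of expression with GC content, an alternative also added later, no member was called by limma, while 3.41% of all genes were, and all 10 members were higher by sign, with a median of 0.35.

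Scaling mattered for the size of the differences. With library size as the only scaling, all genes together moved in median from -0.06 to -0.27 and that of the members from 0.25 to 0.03. Relative to all genes, the median of the members was 0.32 higher with the deposited scaling, 0.30 higher with library size and 0.31 higher with upper-quartile scaling. A ratio of 2 genes within a tumor does not depend on the scaling, and 7 such ratios were compared. None passed after adjustment over the 7 ratios, for which the smallest exact p of this design, 0.00794, gives 0.0556 where a single ratio reaches it.

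The ratio of Me1 to Me2, the mitochondrial malic enzyme, was the only ratio without overlap between the groups. On the log2 scale it was 1.65, 1.55, 1.67, 1.77 and 1.66 in CTRL tumors and 1.94, 1.998, 2.11, 1.78 and 1.998 in D30 tumors. Every D30 tumor lay above every CTRL tumor, T5 by the least, and the means of 1.66 ± 0.0773 (SD, n = 5) and 1.97 ± 0.1195 (SD, n = 5) differed by 0.31 (two-sided exact permutation p = 0.00794, adjusted p = 0.0556 over the 7 ratios). Neither gene alone separated the groups: Me2 was highest in T5 and T4, the tumors highest in Me1, and had a log2 fold change of -0.08 (limma, BH-adjusted p = 0.883). The mitochondrial enzyme uses mainly NAD, so the ratio sets a cytosolic NADPH producer against an enzyme of another compartment.

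**Figure D4:**
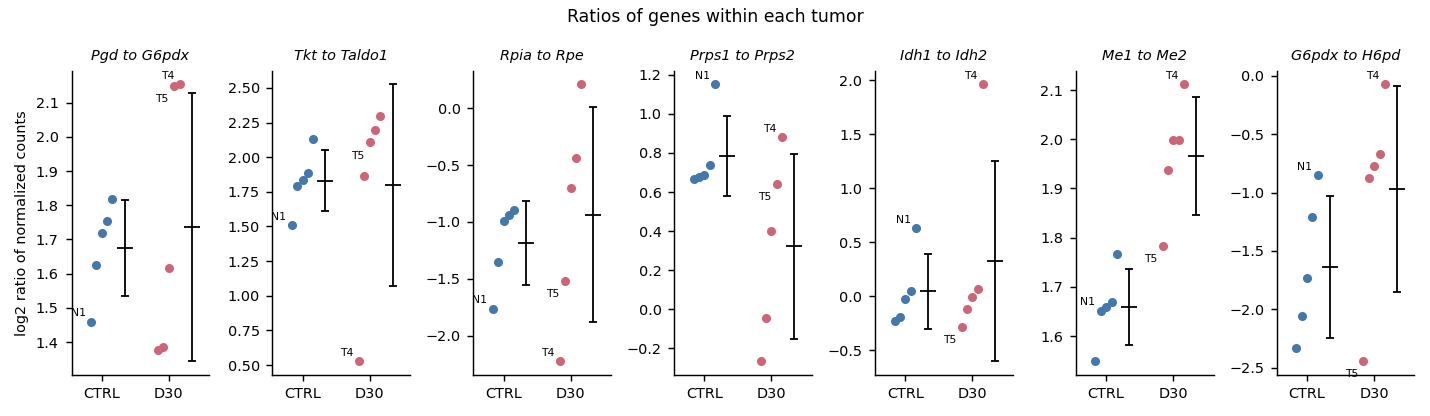
Log2 ratio of the normalized counts of gene pairs within each tumor (vertical axes, which do not start at 0), CTRL in blue and D30 in red, with the mean and SD of 5 tumors in black. The groups overlap in 6 ratios and not in Me1 to Me2, and T4 stands apart in Tkt to Taldo1 and Idh1 to Idh2.

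The ratio of Prps1 to its paralog Prps2 was 1.15, 0.67, 0.69, 0.67 and 0.74 in CTRL and -0.05, -0.26, 0.88, 0.64 and 0.40 in D30 tumors on the log2 scale. Only T4 of the D30 tumors lay inside the CTRL range, and the mean was lower by 0.46 (difference -0.46, exact permutation p = 0.0873, adjusted p = 0.306). Without T4 the groups did not overlap and the difference of -0.60 had an exact permutation p of 0.00794 and an adjusted p of 0.0278, as did that of Me1 to Me2 at 0.27. Since T4 had the highest D30 ratio of Prps1 to Prps2, leaving it out could only widen that difference. Pgd to G6pdx, the dehydrogenases of the oxidative branch, had a log2 ratio of 1.68 ± 0.139 (SD, n = 5) among CTRL tumors, and 1.74 ± 0.391 among D30 tumors. T4 and T5 had the highest ratios of Pgd to G6pdx, both at 2.15, and T1 and T2 the lowest, at 1.39 and 1.38. Tkt to Taldo1 was 0.53 in T4 and at least 1.51 in every other tumor. Idh1 to the mitochondrial Idh2 was 1.96 in T4 and at most 0.63 elsewhere. Rpia to Rpe and G6pdx to H6pd, its partner in the endoplasmic reticulum, overlapped between groups, with adjusted exact permutation p values of 0.907 and 0.481.

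Levels of different genes can be compared only per length. The scale used here was RPKM, reads scaled to the length of merged exons and to the total of the library. Merged exons join those of all annotated transcripts of a gene and can be longer than any of them. Such an excess lowers the value of a gene, and its part in the order below was not tested. Tkt, Pgd and Rpia had the longest merged exons of the 10 genes, at 7355, 6447 and 5359 bases, and Prps1 the shortest, at 1993. In CTRL tumors Idh1 was highest on this scale, at 79.8 ± 19.5 (SD, n = 5), followed by Tkt at 53.9 ± 5.51, Taldo1 at 51.8 ± 8.87 and Me1 at 49.3 ± 6.44, which did not differ from each other beyond their spread. Pgls at 42.1 ± 5.34 and Prps1 at 40.5 ± 9.56 came next, then Pgd at 25.1 ± 3.60. G6pdx at 16.5 ± 2.71 and Rpe at 15.1 ± 4.56 did not differ beyond their spread, and Rpia was lowest at 3.77 ± 0.574. G6pdx, which commits glucose to the pathway, was thus among the lowest of the 10 genes on this scale, below the 2 later enzymes of its branch. In D30 tumors Idh1 stood at 91.6 ± 65.5, Tkt at 64.1 ± 17.6, Taldo1 at 61.2 ± 13.3 and Rpia at 5.18 ± 2.53 (SD, n = 5 each). The lengths come from GENCODE M21, which may be an older release than the one used for counting.

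Pairs of members were compared over the 10 tumors by Pearson's r and Spearman's rho on the log2 scale, 45 pairs in all. In 7 of 45 pairs r passed at a permutation p adjusted over the pairs, in 3 rho passed, and only 2 pairs passed by both. These were G6pdx with Rpia (r = 0.90, adjusted permutation p = 0.0189, rho = 0.87, adjusted permutation p = 0.0441) and Pgd with Tkt (r = 0.89, adjusted permutation p = 0.0220, rho = 0.94, adjusted permutation p = 0.0094). With the group means subtracted, G6pdx with Rpia had r = 0.91 (adjusted permutation p = 0.00900) and Pgd with Tkt r = 0.82 (adjusted permutation p = 0.0374). By rho after the same subtraction, G6pdx with Rpia passed (0.92, adjusted permutation p = 0.0220) and Pgd with Tkt did not (0.85, adjusted permutation p = 0.0639). The permutation after subtraction exchanged tumors across both groups as if their spread were equal. On the log2 scale G6pdx and Rpia had SDs of 0.25 and 0.24 in CTRL and 0.59 and 0.68 in D30 tumors. The p values after subtraction may therefore be too small. Without T1 and T7, the tumors farthest from the median of G6pdx and of Pgd, r was 0.84 and 0.75. The dehydrogenase that opens the pathway thus varied with the isomerase that makes ribose 5-phosphate, also after the group means were removed.

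**Figure D5:**
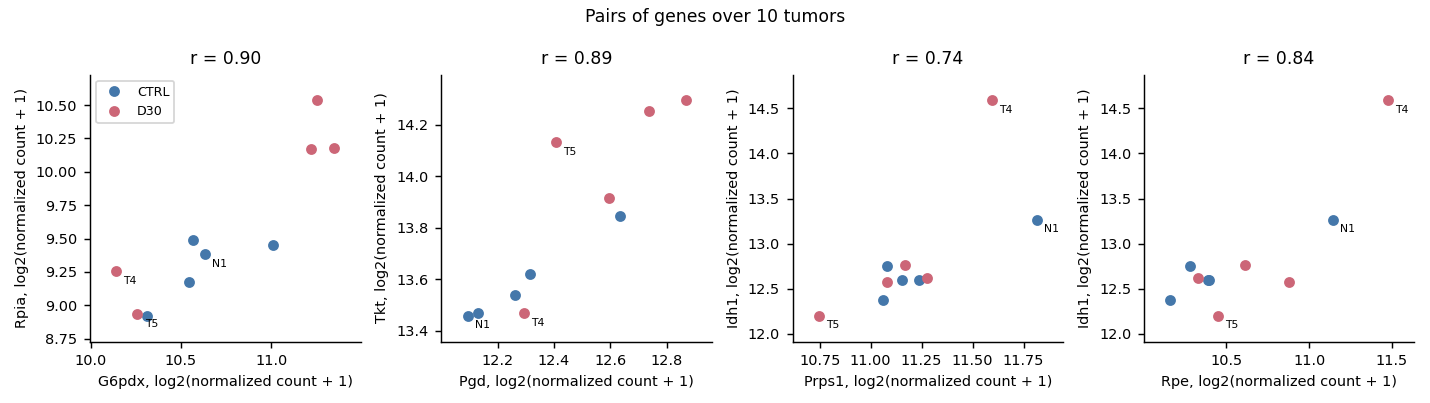
Each point is a tumor (CTRL blue, D30 red) and each panel a pair of genes, in log2(normalized count + 1). The number above it is Pearson's r over 10 tumors. G6pdx and Rpia vary together along all tumors, whereas Rpe and Idh1 are spread mainly by T4 and N1.

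Idh1 varied with Prps1 (r = 0.74, adjusted permutation p = 0.0775, rho = 0.85, adjusted permutation p = 0.0441), and r was 0.76 without N1 and T4. Rpe with Idh1 had r = 0.84 (adjusted permutation p = 0.0399), and without the same tumors r was 0.17, so that this relation rested on them. Taldo1 with Me1 had r = 0.84 (adjusted permutation p = 0.0220), which was 0.55 without N5 and T4. Among the pairs with r below 0, Tkt with Idh1 had the lowest, -0.49 over all tumors and -0.83 with the group means subtracted (adjusted permutation p = 0.0470, rho -0.65, adjusted permutation p = 0.2503), and -0.52 after subtraction when T4 and T7 were left out. The limit given above for p values after subtraction holds for this pair too. The points share the size factor and the GC and length trends of their library, whose part was not tested.

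The wider pathway was described by lists of related genes, 4 of whose members were called, 3 higher and 1 lower in D30 tumors, of 81 tested (2.76% of all genes were called). Of 8 related pentose phosphate genes, G6pd2 and Tktl2 had no read in any tumor, and 5 of the 6 tested were higher by sign, with a median log2 fold change of 0.66. Shpk, the sedoheptulose kinase that feeds sedoheptulose 7-phosphate into the non-oxidative branch, rose. It had 122, 99.0, 107, 149 and 117 normalized counts in CTRL and 206, 199, 245, 249.5 and 239 in D30 tumors. The groups did not overlap, as in 6.19% of all tested genes, and the log2 fold change was 0.94 (SE 0.226, limma, BH-adjusted p = 0.0442). The call was lost when N1, N2, N4, N5, N6, T1, T2 or T7 was left out, with differences of 0.88 to 1.02 and adjusted p of 0.0637 to 0.149 by limma, and with library size as the only scaling (0.72). Pgm1, which interconverts glucose phosphates, was at 0.90 and Rbks, ribokinase, at 0.68, neither past the threshold (adjusted p = 0.295 for each, same limma test). Pgm1 passed without T4 (1.24, adjusted p = 0.0413, limma), while Rbks was at 0.42 without it. Of the D30 tumors T4 was the lowest for Pgm1, so leaving it out could only raise that difference.

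Of 12 other genes of NADPH supply, 6 were higher and 6 lower by sign. The list includes the NAD kinases Nadk and Nadk2, which make NADP, and Me2, which uses mainly NAD. Mthfd2 of this list rose. It encodes a mitochondrial enzyme of the folate cycle that can use NADP. Mthfd2 had 993, 895, 1015, 599 and 765 normalized counts in CTRL and 1815, 1235, 1335, 2189.8 and 1584 in D30 tumors. Its difference was 0.93 on the log2 scale (SE 0.217, limma, BH-adjusted p = 0.0380). The lowest D30 tumor exceeded the highest CTRL tumor, where 6.19% of all tested genes had groups without overlap. Without N1, N2, N4, N5, N6, T1, T5 or T7 Mthfd2 did not pass, at 0.81 to 0.998 with adjusted p of 0.0552 to 0.113 by limma, nor did it with library size as the only scaling (0.71). Nadk2, the mitochondrial NAD kinase, did not overlap either, with a log2 fold change of 0.50 and an adjusted p of 0.147 (same limma test; 0.56 and 0.0424 without T4), and Aldh1l2, a mitochondrial folate dehydrogenase, was at 1.02 (adjusted p = 0.407). The Aldh1l2 difference was 0.42 without T5, which had 758 normalized counts. For Nadk2, T4 was the lowest D30 tumor, so leaving it out could only raise the difference.

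The 12 genes that supply or divert glucose 6-phosphate had the highest median of the lists, 0.70 on the log2 scale, with 10 higher and 2 lower by sign. None was called by limma, and 6 had an unadjusted p under 0.05 against 17.3% of all genes. Pfkp, a phosphofructokinase that draws the sugar into glycolysis, had a log2 fold change of 1.36 (adjusted p = 0.0817), Gpi1, the isomerase at the branch point, 0.99 (adjusted p = 0.109) and Hk3, a hexokinase, 0.96 (adjusted p = 0.127), all by limma. T5 was highest for each, with 14409.6 normalized counts of Pfkp where the other D30 tumors had 2371 to 5282. By DESeq2 on the recovered reads these 3 passed, with adjusted p values of 0.00528, 0.0221 and 0.0217. On simulated data this test had the larger share of false calls, but those data lacked the unequal spread and outlying tumors seen here. Without T4, Pfkp (1.65, adjusted p = 0.00871) and Gpi1 (1.20, adjusted p = 0.0137) passed by limma too. That tumor was the lowest D30 tumor of both genes, so leaving it out could only raise these differences. Downstream of the ribose phosphates, 20 genes of PRPP and nucleotide synthesis had a median of 0.05, with 11 higher, 9 lower and 0 called by limma. Of these 20 genes, 2 had an unadjusted limma p under 0.05, again against 17.3% of all genes. The smallest p values there belonged to Aprt, which salvages adenine (log2 fold change 0.60, adjusted p = 0.189), Impdh1 of guanine nucleotide synthesis (0.70, adjusted p = 0.268) and Pfas of purine synthesis (-0.59, adjusted p = 0.413), by the same limma test, and Impdh1 passed without T4 (0.97, adjusted p = 0.0248). Without T4, Pfas was at -0.32. Impdh1 and Pfas were both lowest in T4 among D30 tumors, so leaving it out could only raise their differences.

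Of 12 genes whose products consume NADPH, 6 were higher and 6 lower, with a median of -0.0053 and 0 called by limma. Of the 12, 1 had an unadjusted limma p under 0.05, against 17.3% of all genes. Cbr1, a carbonyl reductase, was at 1.36 (limma, BH-adjusted p = 0.0710), with 89.4 to 349 normalized counts in CTRL and 219 to 492 in D30 tumors, and N1 was the CTRL tumor that overlapped. It passed without N1 (1.69, adjusted p = 0.0156 by limma) or without T4 (1.54, adjusted p = 0.0209). N1 was the highest CTRL tumor and T4 the lowest D30 tumor of Cbr1, so leaving either out could only raise the difference. Blvrb, biliverdin reductase B, was at 0.68 (0.29 without T4) and Por, the reductase of cytochrome P450, at 0.39 (0.15 without T5 and 0.59 without T4), neither past the threshold. Among 11 regulators, Mafk, a small Maf protein that pairs with NRF2 or BACH1 on DNA, rose from 1373 ± 145 to 3092 ± 885 normalized counts (SD, n = 5 each). The log2 fold change was 1.14 (SE 0.197, limma, BH-adjusted p = 0.00863), and all D30 tumors, at 2464 or more, exceeded all CTRL tumors, at 1540.4 or less. Of all tested genes, 6.19% had groups without overlap. Maff, a relative of Mafk, was at 0.96 (adjusted p = 0.0754, limma) and Mlxipl, a carbohydrate-responsive factor, at -1.50 with a mean of 27.5 in CTRL tumors (adjusted p = 0.295, limma, and -0.99 without T4). Of 11 NRF2 targets outside the pathway, Gclc, of glutathione synthesis, fell by 0.996 on the log2 scale (adjusted p = 0.0127, and 0.0501 without N2), and Ephx1 was at -0.49 and Srxn1 at -0.33, neither past the threshold. The 11 targets had a median of -0.15, with 5 higher and 6 lower.

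NRF2 with a small Maf binds the antioxidant response element, whose core was searched as TGACNNNGC on both strands of the 300-base promoters of RefSeq (GRCm38.p6, 250 bases before to 50 after a start). All 10 genes were matched, with 13 promoters, and 3 of the 13 promoters, each of another gene, held the core, where 12.4% of 32851 promoters of all genes held it. The stretches of 30 bases around it are shown with the core in capitals, 5′ to 3′ on the strand of the gene. They were chosen because Mafk was called higher among the regulators and Gclc lower among the NRF2 targets. For G6pdx the core lies at -57 to -49 from the start on the reverse strand (chrX:74428918-74428947), for Me1 at -6 to 3 (chr9:86695901-86695930), and for Pgd at 4 to 12 of an alternative start (chr4:149166060-149166089).
G6pdx: aggcgggtcaGCTCAGTCAaagcacacgcc
Me1: gatgccgccgTGACTCAGCgcttctcgcgg
Pgd: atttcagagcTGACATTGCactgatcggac
The E-box CACGTG, which carbohydrate-responsive factors can bind, was in 0 of 13 promoters of the members and in 7.15% of all promoters. The GC box GGGCGG was in 11 of 13 promoters, of all 10 genes, and in 35.7% of all promoters, and the CCAAT box CCAAT in 6 of 13 and 37.4%. Some of these windows are annotated as transcribed in GENCODE. Tkt, the member with the lowest limma p, had 3 GC boxes on the reverse strand in the 30 bases before its start (chr14:30549101-30549130), in capitals, of which 2 overlap by 1 base.
Tkt: gcgccCCGCCCcacctCCGCCCCGCCCccc
The matches describe these letters and are not measurements of binding.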

How the data were processed

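RNA from 5 CTRL and 5 D30 tumors was sequenced in pairs from strand-specific libraries. The authors trimmed reads (Trim Galore), aligned them with STAR 2.7.0e and deposited 1 normalized signal per gene and tumor, a count divided by DESeq2's size factor. The submitters' processing notes name GRCm39 and the study's methods another organism's build, while the identifiers are mouse. The study's software list also names RSEM, a quantifier, but whether it made this table, and with which strand setting, is not given in the sources used here. All values (100%) gave whole reads within 0.01 when this division was undone. Identifiers were matched without version to GENCODE M21 (GRCm38), which named 94.1% of genes.

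Groups were compared with limma 3.58.1 (R 4.3.3) with a mean-variance trend and a pseudocount of 1. Alternative fits used the whole reads with edgeR 4.0.16 and DESeq2 1.42.0. Single values and ratios were compared by exact permutation tests written in Python 3.11.15 with NumPy 2.4.6. Pairs were compared by permutation, with ranks from SciPy 1.17.1. P values measure the spread between these tumors. Other scalings, filters, pseudocounts, left-out tumors and a GC correction were also run. The fits were tested on simulated data, where DESeq2 made a larger share of false calls than limma or edgeR. The genes and lists were chosen with earlier results of these data known. Named genes are the 10 members, called genes of the other lists, up to 3 genes per list by smallest p, and paralogs used in ratios.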

Additional observations from a re-analysis of the deposited data

Results flagged for a closer look

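In 4 of 20 groups of 5 tumors looked at (10 genes in each of the 2 diets), a single tumor lay far from the others by Dixon's criterion at the 95% level, which chance alone meets in about 1 of 20 groups. The CTRL tumor N1 had 2265 normalized counts of Rpe, where the next CTRL tumor had 1342, and 3603 of Prps1, where the next had 2417. The D30 tumor T4 had 7859 normalized counts of Taldo1, where the next D30 tumor had 4259, and 24618 of Idh1, where the next had 6962. N1 and T4 were also the tumors in which genes of low GC content stood highest, by 0.73 and 1.29 log2 units, and the GC content of these genes was 39.2% for Rpe, 44.99% for Prps1, 53.6% for Taldo1 and 43.8% for Idh1. The part of GC content in these values was not tested.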

How the results depend on the processing

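Over 22 alternatives, 207 of 220 differences of the 10 genes kept their direction and their side of the threshold, 5 newly passed and 8 changed sign. The sign changed for Pgls with library-size scaling (-0.0023), for Me1 without T4 and T5 (-0.0095), for Idh1 without T4 and T5 (-0.065) and without N1 and T4 (-0.041), and for Prps1 with the GC correction (0.00062). With each tumor left out in turn, Prps1 ran from -0.20 to 0.039 and was above 0 without N1 or T5, and Idh1 ran from -0.18 to 0.42 and was below 0 without T4. Leaving out single tumors gave 279 (without N2) to 1573 (without T4) called genes, 0 to 1 called members (Tkt without T4), 1 (without N2) to 15 (without T4) called genes of the wider lists and 0 to 2 called ratios. Without N5, N6 or T7, 340, 332 and 433 genes were called. Without T4 and T5, 2418 genes, 3 members and 17 genes of the wider lists were called, and without N1 and T4 1584 genes, 1 member (Tkt, 0.53) and 13 genes of the wider lists. DESeq2 called 1833 genes and 13 of the wider lists. With library-size and upper-quartile scaling, 2 of the wider lists were called each, since Shpk and Mthfd2 did not pass (library-size 0.72 and 0.71, upper-quartile 0.78 and 0.77). Shpk also did not pass with a pseudocount of 8. With library-size scaling 240 of 867 called genes were higher in D30 tumors, and 4 pairs of members passed by Pearson's r in place of 7. The causes of these changes were not tested. No paired analysis was possible because the numbers of the columns are not the replicate numbers of the labels. With 5 tumors per group the intervals were wide, and a gene that was not called was not thereby shown to be unchanged.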
